A study of Mus musculus with 8 samples.

Results

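The genes described here are 48 markers of the dividing cell, 25 that act in DNA replication (S phase) and 23 that act in mitosis. They were taken by name from these lists and not by their measured values. Of the 19057 genes with a named probe on the array, 47 were members, since no probe was annotated to Ccnb1, the cyclin B1 gene. Where a gene had several probes, the brightest on average across the 8 arrays stood for it. A background limit of 6.796 on the log2 intensity scale had to be exceeded on at least 4 of 8 arrays, which 41 members did, 23 replication and 18 mitotic genes, among 12466 genes tested. The replication genes Pola1 and Prim1 and the mitotic genes Ccnb2, Bub1, Cenpe and Kif20a did not reach it. Their probes read between 6.54 (Pola1) and 6.99 (Prim1) on single arrays, so their levels are known only to lie at or near background.

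RNA came from mouse intestinal organoids, epithelial cultures grown from crypts, of the genotype Lgr5-EGFP-IRES-CreER; Apcflox/flox on the C57Bl strain, with an age of 2 to 3 months given in the labels. Tamoxifen for 2 days activated the Cre recombinase, which in this line is expressed from the stem cell gene Lgr5, and R-Spondin1, a Wnt agonist, was then withdrawn so that organoids that had lost Apc were selected. Day 20 organoids had spent 18 days without R-Spondin1 and day 7 organoids 5 days, with 4 samples on each day and 1 Illumina beadchip per sample. Tamoxifen and withdrawal apply to both days and undeleted organoids are not compared here, so the age of the culture, the time after deletion and the length of R-Spondin1 withdrawal cannot be told apart. Whether replicates of 1 day were independent cultures or mice is not stated in the labels. The p-values therefore describe the spread between these arrays, which may be technical.

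Replication begins when Cdc6 and Cdt1 load the Mcm helicase at origins. GINS and Mcm10 help to start it, and polymerases, the sliding clamp PCNA with its RFC loader, Fen1 and DNA ligase copy the strands. Mitosis is driven by Cdk1 with cyclins A and B, the Aurora and Polo kinases, the spindle checkpoint and the motor proteins of the spindle. In the intestine these genes are known to be high in the cycling cells of the crypt and low in the differentiated cells of the villus. Replication genes are classic targets of E2F factors. Mitotic genes are bound by the B-MYB-MuvB complex and FOXM1, through a CHR element that often accompanies CCAAT boxes.

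These letters were searched in the members' promoters. The promoters of 4 genes whose values are given further on are shown, a pair from each list, because they hold the E2F, CHR and CCAAT letters that the lists held in different shares. RefSeq windows from 250 bases before to 50 after the annotated start (GRCm38.p6) were found for 40 of the 48 members, 26 windows of 21 replication genes and 19 of 19 mitotic genes. The letters, searched on both strands, were either TTCCCGC or else TTGGCGC or else TTCGCGC or else TTGCCGC for E2F, either TTTGAA or else TTTAAA for CHR, and CCAAT for the CCAAT box. An E2F motif on one strand can overlap a second one on the other, as in the Mcm6 window. E2F letters stood in 19 of 26 replication windows (73.1%) and in 2 of 19 mitotic windows (10.5%), against 15.2% of the windows of all genes tested and 9.57% of all 32851 windows. CHR letters stood in 6 of 26 replication windows (23.1%) and in 16 of 19 mitotic windows (84.2%), against 20% of the windows of all genes tested and 27.6% of all windows. CCAAT stood in 57.7% of replication and 84.2% of mitotic windows, against 37.3% of the windows of all genes tested and 37.4% of all windows. CHR and CCAAT occurred together in 4 replication and 15 mitotic windows. The 250 bases upstream of the start are printed 5′ to 3′ on the strand of the gene, with the motif letters in capitals, for Mcm6 at chr1:128359706-128359955 (minus strand), Rrm2 at chr12:24708004-24708253 (plus strand), Cdk1 at chr10:69352913-69353162 (minus strand) and Cdc20 at chr4:118437344-118437593 (minus strand). A match describes these letters and is not a measured binding site.
Mcm6: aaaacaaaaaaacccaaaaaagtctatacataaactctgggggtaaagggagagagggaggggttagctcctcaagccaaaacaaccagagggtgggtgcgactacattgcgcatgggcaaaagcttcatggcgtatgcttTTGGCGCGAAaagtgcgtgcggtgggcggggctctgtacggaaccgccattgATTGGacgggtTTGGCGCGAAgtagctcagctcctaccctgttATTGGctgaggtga
Rrm2: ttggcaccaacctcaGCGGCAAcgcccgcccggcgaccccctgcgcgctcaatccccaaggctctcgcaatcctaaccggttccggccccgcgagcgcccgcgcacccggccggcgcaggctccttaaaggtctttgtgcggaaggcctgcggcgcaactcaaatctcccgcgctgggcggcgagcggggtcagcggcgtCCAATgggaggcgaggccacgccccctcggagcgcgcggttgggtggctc
Cdk1: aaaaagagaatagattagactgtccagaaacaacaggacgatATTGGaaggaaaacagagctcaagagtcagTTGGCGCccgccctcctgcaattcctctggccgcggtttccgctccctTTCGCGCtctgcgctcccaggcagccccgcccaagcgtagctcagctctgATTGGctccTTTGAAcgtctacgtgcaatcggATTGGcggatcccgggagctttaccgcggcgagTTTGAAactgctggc
Cdc20: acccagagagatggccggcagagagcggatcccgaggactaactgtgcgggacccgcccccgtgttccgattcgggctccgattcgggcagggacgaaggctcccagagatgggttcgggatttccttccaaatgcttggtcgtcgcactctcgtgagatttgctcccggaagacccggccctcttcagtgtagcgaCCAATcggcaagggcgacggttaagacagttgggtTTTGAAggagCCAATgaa
Counted from the annotated start, E2F letters of Mcm6 begin at -109 and -46. Rrm2 has E2F letters at -235 and CCAAT at -50, and its CHR letters lie at the start itself, outside the stretch printed. Cdk1, a mitotic member, holds E2F letters at -178 and -130 and CHR letters at -71 and -15. Cdc20 holds CHR letters at -18.

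Before the results, 2 features of the arrays bear on them. Day 7 replicate 2 had the lowest value of all 8 arrays for 21.3% of the 12466 genes tested, against 7.63% to 12.8% on the other 7 arrays. It also had the highest value for 14.8% of them, against 9.4% to 12.9%, so it stood at the extremes in both directions. Xist, a transcript of the inactive X chromosome, was above background on 6 arrays, among them all day 7 arrays. It was below background on day 20 replicates 1 (6.68) and 4 (6.74), so the day 20 samples were not all alike. Over all genes tested, day 20 replicates 1 and 4 correlated at 0.9917 and replicates 2 and 3 at 0.9905, against 0.9827 to 0.9846 across these pairs. What sets the pairs apart was not tested. Signal of epithelial keratin and regional genes marked the tissue on every array (Krt8 13.73 to 13.99 at day 20 and 13.6 to 13.85 at day 7; Cdx2 11.58 to 11.99 and 11.54 to 11.8), while the Epcam probe lay near background (6.79 to 7 at day 20 and 6.75 to 6.91 at day 7).

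No replication or mitotic gene passed the test between day 20 and day 7. With limma and Benjamini-Hochberg adjustment over all 12466 genes, 0 of 23 replication genes and 0 of 18 mitotic genes had an adjusted p under 0.05. Among all genes tested 4.85% did, 2.51% higher and 2.33% lower at day 20. At an unadjusted p under 0.05 there were 5 members of 41, namely Rrm2, Ccne1 and Rfc4 of the replication genes and Nusap1 and Aurkb of the mitotic genes, against 20.4% of all genes tested. Groups did not overlap for 1 member, Rrm2, whereas they did not overlap for 13.1% of all genes tested. The median SE of the difference was larger over the members, 0.139 against 0.0936 over all genes tested. The lower shares among members therefore do not show that they changed less than other genes. In bulk RNA, the share of cycling cells and the amount of these transcripts per cell cannot be told apart.

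The differences were small and leaned upward. The median log2 difference, day 20 minus day 7, was 0.11 over the replication genes (range -0.18 to 0.60) and 0.091 over the mitotic genes (range -0.088 to 0.55), beside 0.005 over all genes tested. Values were above 0 for 18 of 23 replication genes and 17 of 18 mitotic genes, and for 51.7% of all genes tested. The 95% confidence interval lay inside a 2-fold change either way, -1 to 1 on the log2 scale, for 40 of 41 members. It did so for 11683 of all 12466 genes tested. The exception was Rfc4, whose interval reached 1.11. Intervals of 24 of 41 members lay inside -0.5 to 0.5, beside 9020 of the 12466 genes tested, so members were less tightly bounded than genes at large. With the background mode subtracted from the intensities, which stretches dim genes, 37 intervals lay inside -1 to 1, and those of Rrm2, Rfc4, Nusap1 and Tpx2 reached beyond 1.

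**Figure D1:**
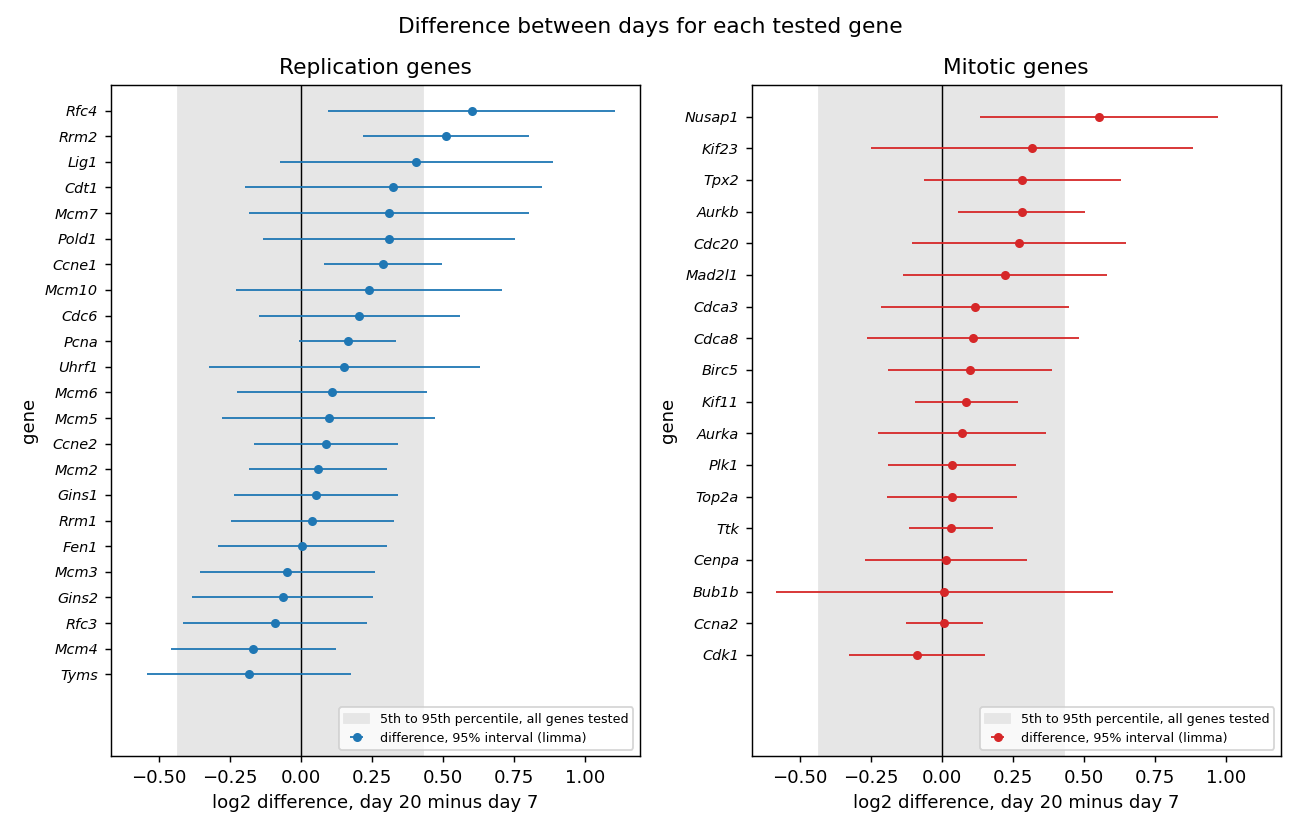
Log2 difference, day 20 minus day 7, of each tested replication gene (left, 23 genes) and mitotic gene (right, 18 genes), with its 95% confidence interval from limma; the grey band spans the 5th to 95th percentile of the differences of all 12466 genes tested (-0.43 to 0.43). Rfc4, Rrm2 and Nusap1 lie to the right of the band, and the intervals of 5 genes, Rrm2, Ccne1, Rfc4, Nusap1 and Aurkb, leave out 0.

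Most of the upward lean was gone without 1 array. Day 7 replicate 2 was the lowest of all 8 arrays for 33 of 41 members (80.5%), 19 of 23 replication and 14 of 18 mitotic genes, against 21.3% of all genes tested. Without that array the median difference was 0.011 over the replication genes and 0.0075 over the mitotic genes, and values above 0 numbered 12 of 23 and 9 of 18. Removing the lowest array of a day necessarily raises the mean of that day. Day 20 replicate 1 was the highest of the 4 day 20 arrays for 30 of 41 members (73.2%), against 22.8% of all genes tested. Without it the medians were 0.05 and 0.053. On the 6 arrays with Xist signal they were 0.08 and 0.023, with 13 of 23 and 12 of 18 values above 0. Day 7 replicate 4 was the highest day 7 array for 22 members (53.7%), against 23.4% of all genes tested. Without it the medians were 0.213 and 0.174. Without day 20 replicate 4 the replication median was 0.179, and without day 20 replicate 2 the mitotic median was 0.146. The replication and mitotic medians were 0.1375 and 0.089 without day 7 replicate 1, and 0.117 and 0.111 without day 7 replicate 3.

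Each array was given a score per list, the average over its genes of the log2 intensity less that gene's 8-array mean. The replication score was 0.273, 0.056, -0.063 and 0.031 on day 20 replicates 1 to 4, against -0.029, -0.376, -0.036 and 0.145 on day 7 replicates 1 to 4. The mitotic score was 0.184, 0.009, 0.013 and 0.065 at day 20, against -0.094, -0.353, 0.074 and 0.101 at day 7. For replication genes 3 of 4 day 7 arrays lay within the day 20 range. For mitotic genes day 7 replicates 3 and 4 lay within it and replicate 1 below it, and day 7 replicate 2 was lowest for both. The replication score minus the mitotic score ranged from -0.077 to 0.089 at day 20 and from -0.11 to 0.065 at day 7, with a mean difference between days of 0.012. This contrast between the lists overlapped between the days. The median SD over members was 0.175 at day 20 and 0.264 at day 7, and it was larger at day 7 for 31 of 41 members (75.6%), against 48.9% of all genes tested.

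**Figure D2:**
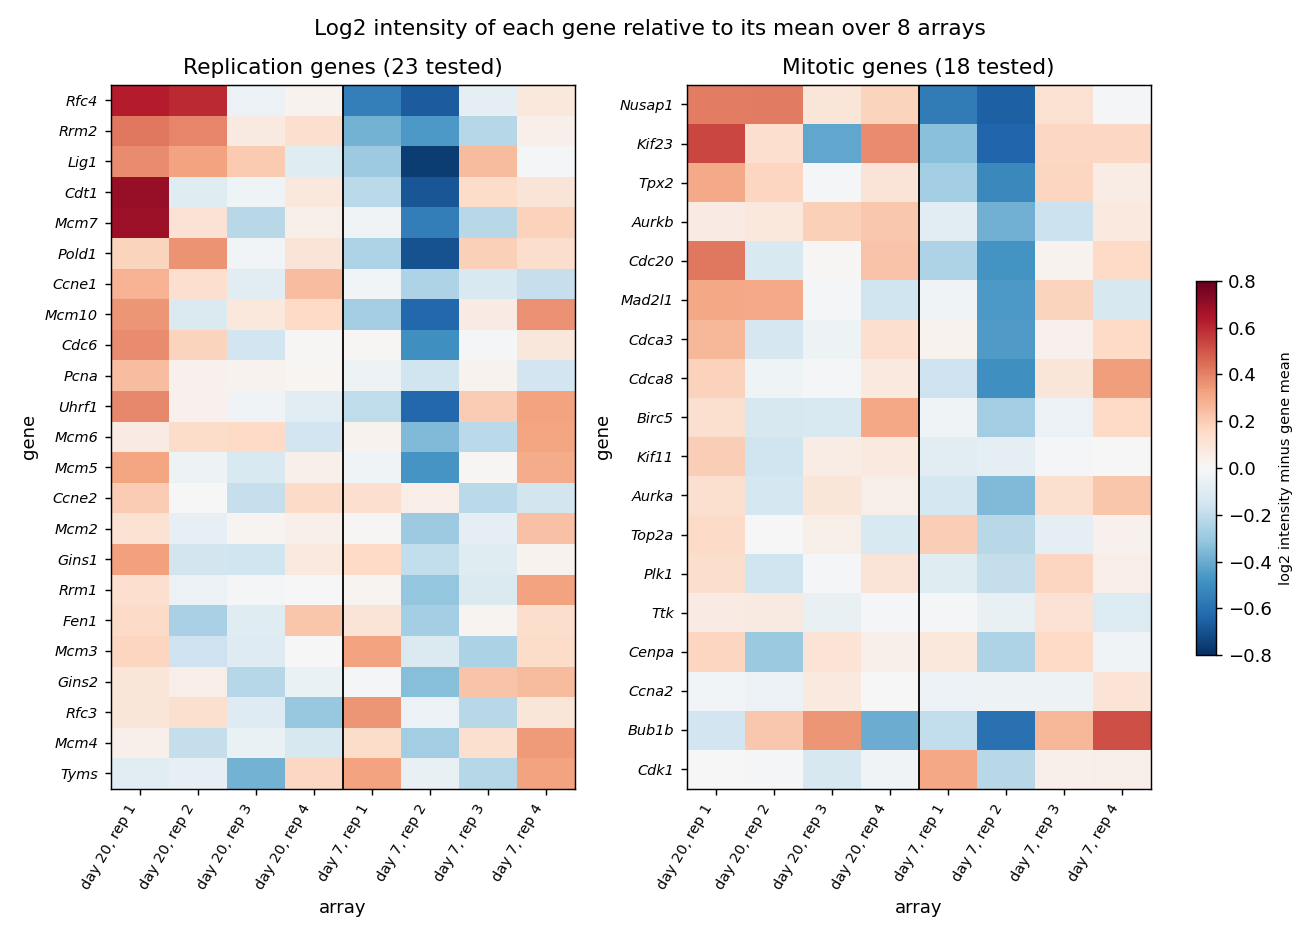
Log2 intensity of each tested gene minus its mean over the 8 arrays (colour, red above and blue below the mean), with replication genes on the left, mitotic genes on the right, day 20 arrays left of the black line and day 7 arrays right of it; genes are sorted by their difference between days. Day 7 replicate 2 is the lowest array for 33 of 41 genes, and day 20 replicate 1 is the highest of its day for 30.

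Values of markers of differentiated cells are given beside these features. All 9 tested enteroendocrine markers, 7 of 9 enterocyte markers and 4 of 5 goblet markers were lower at day 20 by limma. Among all genes tested 2.33% were lower. Several had signal at day 7 alone. Apoa4, Chga, Cck and Sst were below the background limit on all 4 day 20 arrays, and Apoc3 and Zg16 were above it on 1 of 4. Apoa4, Chga, Cck and Sst entered the test through their day 7 arrays alone, so they could only be called lower. The day 20 scores and sums of these lists therefore hold background, and they are upper bounds on the markers' signal. The enterocyte score lay between -1.83 and -1.59 at day 20. At day 7 it was 3.39 on replicate 2 and 0.74 to 1.30 on the other 3 arrays. The goblet score lay between -1.42 and -1.16 at day 20, and at day 7 it was 2.17 on replicate 2 and 0.671 to 1.27 on the remaining arrays. The enteroendocrine score did not single out that array. It lay between -1.49 and -1.33 at day 20, and at day 7 it was 1.10, 1.577, 1.452 and 1.578 on replicates 1 to 4. Summed intensity of the 11 enterocyte markers with a probe was 1277 to 1556 at day 20 and 11291 to 106105 at day 7, with Fabp1 and Fabp2 below the limit on all arrays. For the 7 goblet markers with a probe it was 1566 to 1875 at day 20 and 8568 to 35083 at day 7, with Fcgbp below the limit throughout, and for the 10 enteroendocrine markers it was 1211 to 1358 and 8590 to 13827. Their part in the values of the replication and mitotic genes was not tested.

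**Figure D3:**
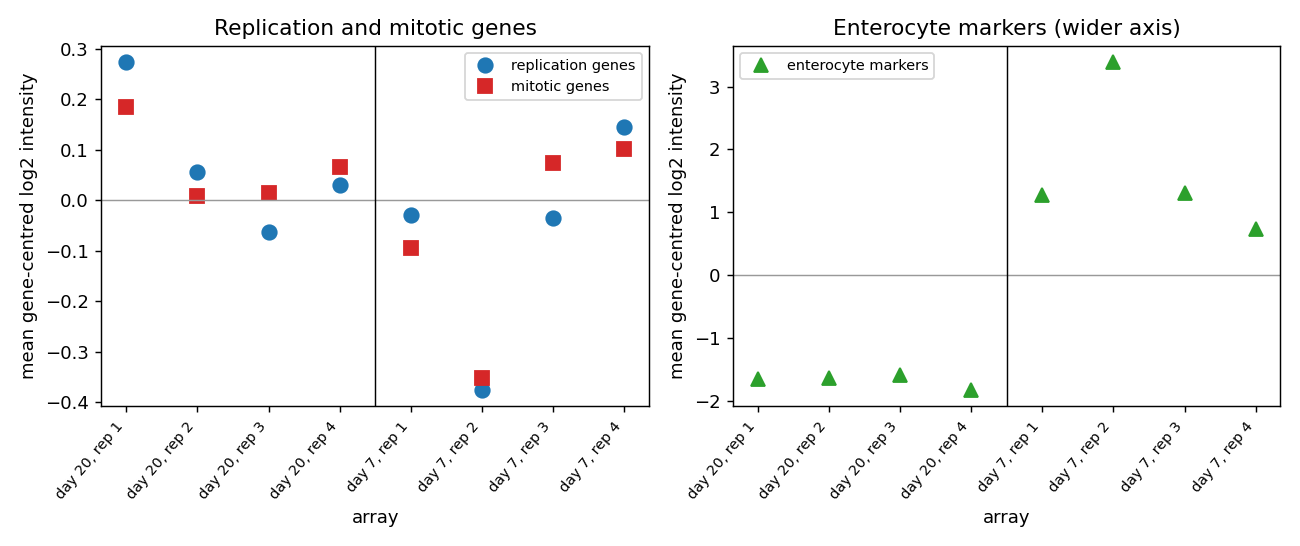
Mean gene-centred log2 intensity per array (1 point per array, day 20 left of the line) for 23 replication genes and 18 mitotic genes in the left panel and for 9 enterocyte markers in the right panel, whose axis is wider. Day 7 replicate 2 has the lowest replication score (-0.376) and mitotic score (-0.353) and the highest enterocyte score (3.39); day 20 enterocyte scores include genes at background.

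The list of crypt stem cell markers had 2 of 7 members lower, Lgr5 and Olfm4, and none higher. For this and the next lists, the shares over all genes tested were 2.33% lower and 2.51% higher. Of the Paneth markers 1 of 4 was called higher (Mmp7, difference 0.83) and none lower. The other Paneth markers differed downward without passing, Lyz1 by -1.06, Ang4 by -0.45 and Itln1 by -0.35. Of the epithelial markers 1 of 8 was higher (Cdx1) and none lower. Mesenchymal and endothelial markers had 0 of 3 called each and immune markers 0 of 1 (limma). At an unadjusted p under 0.05 there were 1, 0 and 0, beside 20.4% of all genes tested. Col1a1, Ptprc and Itgam were below the limit on all arrays. Col1a2, Pdgfra and Cd3e were above it on 7 of 8 arrays and Cdh5, Kdr and Tek on all 8. Their values lay near background, from 6.69 (Pdgfra) to 7.11 (Kdr) on single arrays. Col3a1, Dcn, Lum, Pecam1 and Adgre1 were above the limit on 1 to 3 arrays. Acta2, a smooth muscle actin, read 7.03 to 7.9 at day 20 and 7.94 to 9.98 at day 7 without passing (adjusted p = 0.0545).

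The helicase genes Mcm2 to Mcm7 encode the ring that unwinds DNA, and their differences ran from -0.17 to 0.31 with a median of 0.079. Mcm2 read 10.68, 10.49, 10.58 and 10.60 on day 20 replicates 1 to 4, against 10.57, 10.27, 10.48 and 10.79 on day 7 replicates 1 to 4. Mcm6 read 10.75, 10.83, 10.84 and 10.53 at day 20, against 10.71, 10.33, 10.47 and 11 at day 7. In both genes the highest and the lowest value were day 7 values, with the day 20 arrays between them. The log2 difference was 0.06 for Mcm2 (95% interval -0.18 to 0.30, limma adjusted p = 0.815) and 0.11 for Mcm6 (-0.22 to 0.44, adjusted p = 0.739). Other Mcm6 probes above background gave 0.44 and 0.125.

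Mcm7 had the widest difference of the helicase genes, but its 2 probes disagreed. It read 9.83, 9.26, 8.92 and 9.19 at day 20, against 9.12, 8.59, 8.92 and 9.33 at day 7, so the groups overlapped. The difference was 0.31 (95% interval -0.18 to 0.80, limma adjusted p = 0.477), and that of its other probe was -0.27. The means of Mcm4 were 12.30 ± 0.10 at day 20 and 12.47 ± 0.26 at day 7 (SD over 4 arrays each, n = 4), with an adjusted p of 0.518 in limma. Mcm3 and Mcm5 differed by -0.048 and 0.098.

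Genes that license and fire origins differed by -0.065 (Gins2) to 0.325 (Cdt1). Cdt1, the factor that loads the helicase and is destroyed during S phase, read 11.88, 11.09, 11.15 and 11.27 at day 20, against 10.97, 10.50, 11.33 and 11.29 at day 7. Its high value was a single array, day 20 replicate 1, and its low value a single array, day 7 replicate 2. The interval ran from -0.20 to 0.85 (limma adjusted p = 0.484). Mcm10 differed by 0.24, Cdc6, the other loader, by 0.205, and the GINS subunit gene Gins1 by 0.053, all with adjusted p of 0.516 or higher in limma. Uhrf1, which carries DNA methylation through replication, differed by 0.15 (limma adjusted p = 0.748).

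Of the cyclin E genes, which drive entry into S phase with Cdk2, Ccne1 read 8.08, 7.94, 7.72 and 8.05 at day 20, against 7.78, 7.56, 7.68 and 7.62 at day 7. The difference of 0.29 (95% interval 0.079 to 0.50) had a limma adjusted p of 0.122, and it passed only without day 20 replicate 3 (0.363, adjusted p = 0.0429). Ccne2 differed by 0.088 (adjusted p = 0.728).

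Nucleotide supply held the replication gene nearest to the threshold. Rrm2, the small subunit of ribonucleotide reductase that is made in S phase, read 9.14, 9.11, 8.79 and 8.85 at day 20, against 8.34, 8.26, 8.49 and 8.76 at day 7. All day 20 arrays lay above all day 7 arrays, by as little as 8.79 against 8.76. The difference was 0.51 (SE 0.13, 95% interval 0.22 to 0.80, limma adjusted p = 0.0635). It passed only without day 7 replicate 4 (0.609, limma adjusted p = 0.0348), and over all 17 alternatives the adjusted p ran up to 0.192. Its 2 other probes gave 0.355 and 0.253. The large subunit gene Rrm1 differed by 0.04 and the thymidylate synthase gene Tyms by -0.18, the most negative value of the set (limma adjusted p = 0.902 and 0.578); other Tyms probes above background ran from -0.12 to 0.25.

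At the fork, Rfc4 and Lig1 had large differences and wide errors. Rfc4, a subunit of the loader of PCNA, read 9.11, 9.08, 8.44 and 8.51 at day 20, against 7.94, 7.82, 8.41 and 8.57 at day 7. Each day split into a pair of higher and a pair of lower arrays, so the groups overlapped. The difference was 0.60 (SE 0.22, 95% interval 0.094 to 1.11, limma adjusted p = 0.172), and a dim second probe gave 0.028. Lig1, the ligase that joins Okazaki fragments, read 10.66, 10.60, 10.49 and 10.18 at day 20, against 9.99, 9.52, 10.53 and 10.27 at day 7 (difference 0.405, limma adjusted p = 0.328). Here too day 7 replicates 1 and 2 were the low arrays, and 3 further Lig1 probes gave -0.19 to 0.12.

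Pold1, the catalytic subunit of polymerase delta, read 11.01, 11.19, 10.81 and 10.93 at day 20, against 10.58, 10.13, 11.02 and 10.97 at day 7 (difference 0.31, limma adjusted p = 0.421). Day 7 replicates 3 and 4 again lay among the day 20 arrays. Pcna, the sliding clamp, read 7.60, 7.39, 7.38 and 7.37 at day 20, against 7.31, 7.19, 7.38 and 7.2 at day 7. Its day 20 arrays were equal to or just above the day 7 range apart from replicate 4, which fell inside it, and the difference was 0.165 (95% interval -0.006 to 0.34, limma adjusted p = 0.26). The flap nuclease gene Fen1 differed by 0.005 and the clamp loader gene Rfc3 by -0.093.

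The drivers of mitotic entry differed little. Cdk1, the kinase itself, read 10.72, 10.71, 10.59 and 10.69 at day 20, against 11.03, 10.50, 10.76 and 10.77 at day 7. The day 20 arrays lay within 10.59 to 10.72 and inside the day 7 range, and the difference was -0.088 (95% interval -0.33 to 0.15, limma adjusted p = 0.71). It was the single mitotic member below 0. Ccna2, the cyclin A gene, was near background (6.83 to 6.96 at day 20, 6.83 to 6.99 at day 7), so its difference of 0.0075 says little. Among the kinases, Aurkb, the catalytic subunit of the chromosomal passenger complex, read 9.85, 9.87, 9.97 and 10 at day 20, against 9.70, 9.40, 9.61 and 9.86 at day 7. The groups met at 1 array each, 9.85 at day 20 and 9.86 at day 7, and the difference was 0.28 (SE 0.097, 95% interval 0.057 to 0.50, limma adjusted p = 0.155). Aurka, the spindle pole kinase, differed by 0.07 and the Polo kinase gene Plk1 by 0.035. Ttk, the checkpoint kinase, differed by 0.033 with 5 of 8 arrays above background.

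Checkpoint and exit genes differed by 0.0075 (Bub1b) to 0.27 (Cdc20). Cdc20, the activator that starts anaphase, read 12.60, 12.06, 12.19 and 12.41 at day 20, against 11.93, 11.70, 12.21 and 12.34 at day 7 (limma adjusted p = 0.408). Mad2l1, the checkpoint protein that holds Cdc20 back, read 11.46, 11.45, 11.14 and 10.99 at day 20, against 11.12, 10.69, 11.33 and 11.02 at day 7 (difference 0.22, limma adjusted p = 0.49). In both genes the groups overlapped, with day 7 replicate 2 the lowest array. The other 3 Cdc20 probes gave 0.0075 to 0.123. Bub1b, a checkpoint gene, had the widest interval of the mitotic genes, -0.58 to 0.60, and Cdca3 differed by 0.115.

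Centromere and chromosome genes lay between 0.015 (Cenpa) and 0.11 (Cdca8). Top2a, the topoisomerase that untangles sister chromatids, read 10.33, 10.17, 10.22 and 10.05 at day 20, against 10.37, 9.95, 10.10 and 10.21 at day 7 (difference 0.035, limma adjusted p = 0.891). Birc5, encoding survivin of the passenger complex, read 11.63, 11.37, 11.38 and 11.81 at day 20, against 11.47, 11.22, 11.45 and 11.66 at day 7 (difference 0.098, limma adjusted p = 0.733). The days overlapped over most of their range in both genes. Their 95% intervals were -0.19 to 0.26 and -0.19 to 0.39. Other probes above background gave 0.025 and -0.18 for Top2a and -0.03 and -0.12 for Birc5. They gave -0.10 for Cdca8 and 0.1 for Cenpa, so the sign depended on the probe for Top2a, Birc5 and Cdca8.

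Spindle and midzone genes had the largest median of the mitotic roles, 0.30 over 4 genes. Nusap1, which bundles spindle microtubules, read 10.44, 10.45, 10.13 and 10.21 at day 20, against 9.47, 9.38, 10.15 and 10.02 at day 7. Day 7 replicates 1 and 2 were low, and of the others only replicate 3 reached the day 20 range. The difference was 0.55 (SE 0.18, 95% interval 0.13 to 0.97, limma adjusted p = 0.139), with 0.10 by a dim probe. Kif23, a midzone kinesin needed for cytokinesis, read 11.52, 11.12, 10.57 and 11.36 at day 20, against 10.65, 10.35, 11.15 and 11.15 at day 7. Tpx2, which activates Aurora A on the spindle, read 7.92, 7.79, 7.61 and 7.72 at day 20, against 7.34, 7.10, 7.79 and 7.68 at day 7. Kif23 and Tpx2 overlapped between days, with differences of 0.32 and 0.28 (limma adjusted p = 0.533 and 0.345). Kif11, the kinesin that pushes the poles apart, differed by 0.085.

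Across probes, 41 further probes of 23 tested members were above background on at least 4 arrays. They gave differences of -0.27 to 0.44, and 16 of them had the sign opposite to the probe used.

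**Figure D4:**
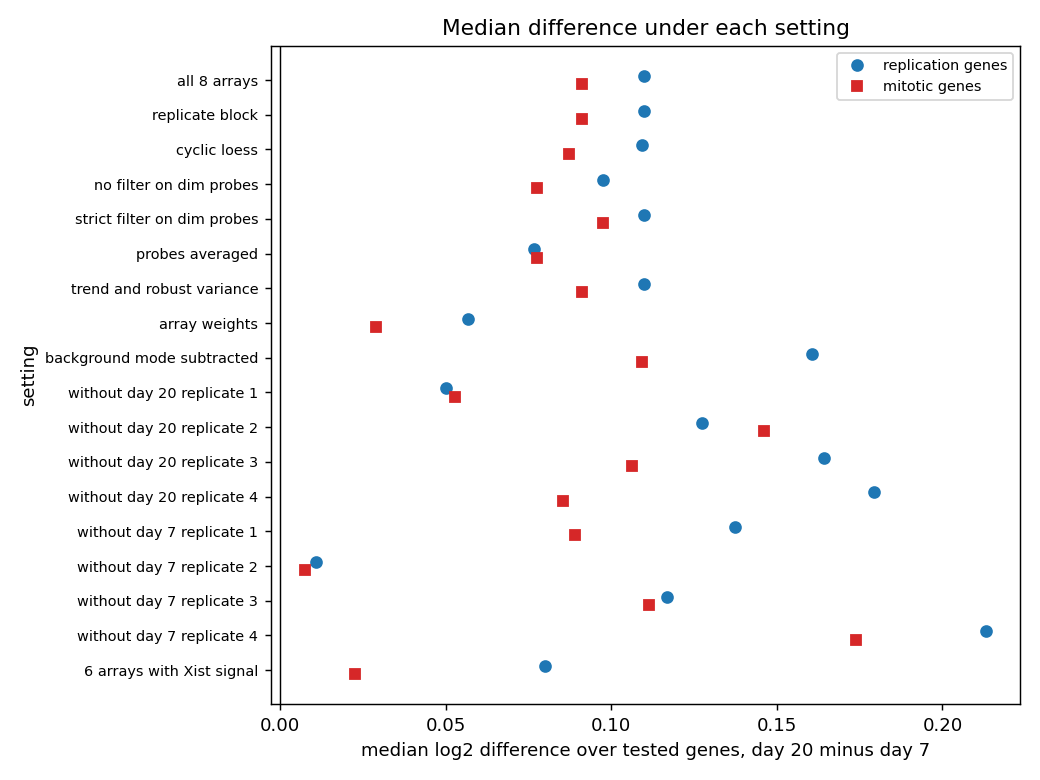
Median log2 difference, day 20 minus day 7, over the tested replication genes and mitotic genes, for all 8 arrays and for each of 17 alternative settings. Both medians stay above 0 and lie lowest, at 0.011 and 0.0075, without day 7 replicate 2.

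Other genes of the same processes lay outside the 48. Of 41 tested other replication genes, 0 passed in limma, beside 4.85% of all genes tested, with a median difference of 0.038. At an unadjusted p under 0.05 there were 6 of 41, against 20.4% of all genes tested. The smallest adjusted p was that of Rfc2, another clamp loader gene, at 11.16, 11.14, 11.10 and 11.39 on the day 20 arrays, against 11.44, 11.51, 11.46 and 11.63 on the day 7 arrays. Its difference was -0.31 (limma adjusted p = 0.0655) with no overlap, opposite in sign to that of Rfc4, and it passed without day 20 replicate 4 (-0.377, adjusted p = 0.0314). Next were the histone chaperone gene Asf1b (0.32), the polymerase epsilon subunit gene Pole4 (0.21), the thymidine kinase gene Tk1 (0.37), Gins3 (0.18), Pole (0.34), Orc6 (-0.23) and Cdc7 (-0.17), with limma adjusted p of 0.156 to 0.274.

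Of 66 tested other mitosis genes, 2 passed upward and 1 downward (limma, 3 of 66 beside the 4.85% of all genes), with a median of 0.093. Cep55, an abscission protein, read 7.71, 7.54, 7.62 and 7.37 at day 20, against 7.00, 6.92, 7.24 and 7.18 at day 7, and rose by 0.475 (limma adjusted p = 0.0332). Pimreg, a regulator of the metaphase to anaphase step, read 7.36, 7.51, 7.46 and 7.41 at day 20, against 7.14, 7.04, 7.25 and 7.15 at day 7, and rose by 0.29 (adjusted p = 0.0382). Cit, encoding citron kinase of the cleavage furrow, read 7.44, 7.36, 7.51 and 7.52 at day 20, against 7.84, 7.79, 7.72 and 8.08 at day 7, and fell by 0.40 on the log2 scale (adjusted p = 0.0373). Groups did not overlap in these 3 genes. All 3 kept the call without day 7 replicate 3, Cep55 also without day 20 replicate 4 and Cit without day 7 replicate 4. Without any other single array none passed in limma, with adjusted p of 0.0568 to 0.0939 for Cep55, 0.0554 to 0.0987 for Pimreg and 0.0508 to 0.0905 for Cit. With day 20 replicates 1 and 4 left out, which leaves the 6 arrays with Xist, Cep55 had an adjusted p of 0.0728, Pimreg 0.083 and Cit 0.128. A second Cep55 probe gave -0.04, and the average of both had an adjusted p of 0.158. Psrc1 (0.355), Pttg1 (0.24), Cdca2 (0.37), Cenph (0.36) and Cenpm (0.285) followed with limma adjusted p of 0.123 to 0.247.

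The transcription factors that act on these genes had 0 of 16 tested members called in limma, with a median of 0.113. Among all genes tested 4.85% were called. At an unadjusted p under 0.05 there were 2 of 16, against 20.4% of all genes tested. E2f2, an activator of replication genes, ranged from 9.07 to 9.81 at day 20 and from 8.70 to 9.23 at day 7, with a difference of 0.48 (limma adjusted p = 0.192). E2f5, a repressor, ranged from 8.71 to 9.05 at day 20 and from 8.27 to 8.75 at day 7, with a difference of 0.305 (limma adjusted p = 0.182). Mybl2, the B-MYB gene, differed by 0.315, Rbbp4 by 0.25, the retinoblastoma gene Rb1 by 0.19, Rbl1 by 0.11, Lin37 by 0.115 and E2f7 by -0.13, with limma adjusted p of 0.323 to 0.545.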

How the data were processed

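Total RNA of 8 organoid samples was amplified to biotinylated cRNA and read on Illumina mouse arrays, per the labels' protocols. The authors deposited a table of log2 intensity per probe, in which median (6.81) and maximum (15.43) are equal on every array. How they corrected the background or normalized is not given in the sources used here. A second table with 16 value columns was not used, because its column names match no sample label.

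Gene symbols came from GEO's annotation of the array, which gave 1 symbol for 34885 of 45281 probes, several for 18 and none for 10378, and 34807 entrez numbers were found in the RefSeq table of GRCm38.p6. The background limit lies above the commonest value (6.7) by 0.05837, the SD of dimmer values about it, times the normal deviate of a 0.05 upper tail. Day 20 minus day 7 was tested in R 4.3.3 by limma 3.58.1 with lmFit and eBayes, two-sided and without covariates, and p-values were adjusted by Benjamini-Hochberg over 12466 genes. The code was tested on simulated data. Figures used matplotlib 3.10.9 in Python 3.11.15.

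The members, lists, tests and alternatives were chosen with earlier results of these data known, and the 4 promoters shown after their values and letters were seen. By rule, values in every array are given for the 6 members of each list with the largest difference and for Pcna, Mcm2, Mcm6, Top2a, Cdk1 and Birc5. Ccne1 was added to these after its values were seen. Of each other list the 8 genes with the smallest adjusted p are named, most by their difference only. Alternatives were a strict background limit (6.836) or none, the mean of a gene's probes, cyclic loess, array weights, a robust fit with trend, subtraction of the background mode (offset 16), a replicate block, leaving out each array, and the 6 arrays with Xist signal. The precision is limited by the number of arrays and, for dim probes, by background.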

Additional observations from a re-analysis of the deposited data

Results flagged for a closer look

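Within each day, 136 groups of 4 arrays (tested members and the other named genes and scores) were examined for 1 array far from the other 3, and 6 stood apart, 4.41% where chance gives about 1 in 20. Among members, Pcna was at 7.60 on day 20 replicate 1, with the other day 20 arrays at 7.37 to 7.39, and Ccna2 was at 6.99 on day 7 replicate 4, with the others at 6.83 to 6.84, near background. Of the other genes, Mybl2 was at 8.81 on day 20 replicate 2 (others 9.46 to 9.56), Tk1 at 9.52 on day 7 replicate 2 (others 10.01 to 10.11), Orc6 at 11.22 on day 7 replicate 1 (others 10.85 to 10.88) and Cenph at 7.46 on day 7 replicate 3 (others 7.07 to 7.13). Day 7 replicate 2, although lowest for most members, stood apart by this measure for Tk1 alone among these groups.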

How the results depend on the processing

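Of 696 combinations of 41 members with 17 alternatives, 642 kept the sign and the side of the threshold, 52 over 21 members turned the sign without passing, and 2 passed (Rrm2 and Ccne1, given above), so replication genes called higher numbered 0 to 1 as single arrays were left out. With array weights the turned values were -0.021 for Rrm1, -0.050 for Fen1, -0.0039 for Ccna2, -0.124 for Bub1b, -0.0080 for Aurka, -0.012 for Plk1 and -0.028 for Cenpa. With probes averaged they were -0.041 for Top2a and -0.0175 for Birc5. On the 6 arrays with Xist signal they were -0.0325 for Mcm5, -0.1275 for Gins1, -0.0075 for Rrm1, -0.0475 for Ccne2, -0.1775 for Fen1, -0.0675 for Plk1, -0.075 for Birc5, -0.03 for Cdca3, -0.085 for Cenpa and -0.01 for Kif11. With single arrays left out, differences ran from -0.026 to 0.1475 for Mcm2, -0.141 to 0.0525 for Mcm3, -0.043 to 0.213 for Mcm5, -0.049 to 0.115 for Gins1, -0.189 to 0.0075 for Gins2, -0.056 to 0.154 for Rrm1, -0.031 to 0.286 for Uhrf1, -0.1825 to 0.011 for Rfc3, -0.084 to 0.0925 for Fen1, -0.034 to 0.106 for Top2a, -0.018 to 0.046 for Ccna2, -0.176 to 0.00083 for Cdk1, -0.19 to 0.18 for Bub1b, -0.035 to 0.155 for Aurka, -0.0225 to 0.0975 for Plk1, -0.017 to 0.187 for Cdca3, -0.036 to 0.241 for Cdca8 and -0.065 to 0.117 for Cenpa. The causes were not tested. Other mitosis genes called were 0 higher and 0 lower with the replicate block and on the 6 arrays with Xist signal, 1 higher with probes averaged, and 0 to 2 higher and 0 to 1 lower with single arrays left out; other replication genes called lower were 1 on the 6 arrays and 0 to 1 with single arrays left out. Over all genes, 313 were higher and 291 lower; 207 were higher with the replicate block, 141 lower on the 6 arrays, and 140 to 251 higher and 161 to 328 lower with single arrays left out. Replicate numbers pair no samples by the labels: deviations of same-numbered arrays correlated at -0.0096 to 0.142, 2 of 4 pairs above 0.1, and 4 of 8 arrays correlated best with their own number. The replicate block left 0 members called. Signal over background limits Ccna2 and Ttk and the 6 members too dim to test.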

Other observations

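Of 7 tested genes listed as markers of growth arrest, 3 were higher at day 20 (limma) and none lower. Of all genes tested 2.51% were higher and 2.33% lower. Cdkn1a, the p21 gene, ranged from 12.10 to 12.49 at day 20 and from 11.37 to 11.69 at day 7 (difference 0.815, limma adjusted p = 0.0049). Ccng1, a p53 target, averaged 12.08 ± 0.16 at day 20 and 11.07 ± 0.35 at day 7 (SD over n = 4 arrays; difference 1.01, limma adjusted p = 0.0158), and Cdkn2b, a Cdk4 and Cdk6 inhibitor, 8.98 ± 0.09 at day 20 and 8.27 ± 0.35 at day 7 (difference 0.71, adjusted p = 0.0417). Cdkn1c and Cdkn1b, of the p21 family, were at -1.48 and -0.38 without passing (limma adjusted p = 0.0674 and 0.0858), and their groups did not overlap. Whether the list differs from the replication and mitotic genes was not tested.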
